A study of Saccharomyces cerevisiae BY4741 with 24 samples.

Results

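This account describes 10 genes of Saccharomyces cerevisiae for small heat shock proteins, membrane stress proteins, disaggregases, the mitochondrial chaperonin and J-domain proteins, in cultures with little or ample glucose. They were chosen by name: HSP26, HSP42, HSP12, HSP30, HSP104, HSP78, HSP60, HSP10, YDJ1 and SIS1. All 10 were found, each with 1 probe set, among 5449 genes measured. Strain BY4741, a haploid of mating type a much used in the laboratory, was grown in YPD, a rich medium, at 0.5% glucose (caloric restriction) or at 2% glucose (the control). Cells were harvested 12, 18, 24 and 48 h after inoculation, which gave 8 groups of 3 Affymetrix Yeast Genome 2.0 arrays, 24 in all, described as biological triplicates. The groups were thus 0.5% glucose at 12, 18, 24 and 48 h and 2% glucose at the same times, all of 1 strain with no genetic change between them. The series design names these times as those over which restricted cells gained the capacity for a longer lifespan.

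Chaperones keep proteins folded. Small heat shock proteins such as Hsp26 and Hsp42 bind proteins that are unfolding and hold them in a form that can be recovered. Disaggregases, ring-shaped ATPases, pull single chains back out of aggregates, and chaperonins enclose a protein in a chamber in which it can fold. J-domain proteins bring clients to Hsp70 and start its ATP cycle. In yeast many of these genes are activated by Hsf1, the heat shock factor, or by Msn2 and Msn4, which act when glucose runs out or stress sets in.

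Levels are the deposited log2 values, and a change is a log2 difference from one limma model over all 8 groups, given with its SE (n = 3 arrays in each group). A gene was called where its adjusted p (Benjamini-Hochberg over 5449 genes) was under 0.05. Levels of different genes are not set against each other, since each probe set has its own brightness. The values had been quantile normalized, so that a change tells how a transcript moved against the rest of its array, and fewer transcripts per cell cannot be told apart from a shift in all others. On a scale set by 12 spiked bacterial probe sets, called the spike-in scale here, the median change of all genes was 0.35, 0.16, 0.27 and -0.41 for 0.5% against 2% glucose at 12, 18, 24 and 48 h, in place of -0.05, -0.0015, 0.0039 and 0.08. The spike-in group means ranged from 3.88 to 4.85, with SDs from 0.08 to 0.34 (n = 3 arrays). A call on the scale set from group means leaves that spread out.

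The arrays matched the strain in part of the markers. All 7 genes specific to mating type a were above background in all 8 groups, the background being 2.29, the 95th percentile of 1746 Schizosaccharomyces pombe probe sets. MET17 and URA3, deleted in this strain, were below background in all 8 groups and LEU2 was above it in 1, while HIS3, also deleted, had group means between 4.72 and 5.36. Of the 4 alpha-specific genes SAG1 and STE3 were above background in all 8 groups too, MF(ALPHA)1 in 6 and MF(ALPHA)2 in 3. Schizosaccharomyces pombe probe sets for hsp10, mas5, psi1 and hsp90, relatives of the chaperones measured here, were above background on 0 of 24 arrays.

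At 48 h the glucose levels differed most for these genes. Relative to the other transcripts, 9 of the 10 were lower in 0.5% glucose, 6 of them by at least 2-fold, and 0 were higher. Over all genes 37.8% were called lower and 10.6% lower by at least 2-fold, and 46.0% were called higher. The median of the 10 genes was -1.25, against 0.08 for all genes. Those at least 2-fold lower were HSP30, HSP42, HSP104, HSP60, HSP78 and HSP10. HSP12 alone was not called, at 0.07 ± 0.05 with an adjusted p of 0.225.

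At the earlier times the medians of the 10 were nearer 0, and all calls were again for lower levels in 0.5% glucose relative to the other transcripts. At 12 h 9 of 10 genes were lower in 0.5% glucose, with 41.2% of all genes called lower, and the median was -0.41 against -0.05. None of the 9 reached 2-fold, as 2.84% of all genes did. At 18 h 6 of 10 were lower, with 24.8% of all genes called lower, and the median was -0.17 against -0.0015. At 24 h 8 of 10 were lower, with 31.4% of all genes called lower, and the median was -0.58 against 0.0039. No gene of the 10 was called higher in 0.5% glucose at any time, while 32.2%, 25.5%, 31.6% and 46.0% of all genes were at 12, 18, 24 and 48 h. On the spike-in scale the medians of the 10 were -0.01, -0.01, -0.31 and -1.74 at 12, 18, 24 and 48 h. With that scale set from group means 4, 3, 6 and 10 of the 10 were called lower and 3, 4, 2 and 0 higher at these times. With this setting 11.6%, 10.6%, 12.4% and 65.4% of all genes were called lower and 69.3%, 51.4%, 64.2% and 19.4% higher. With it set on each array, which adds the spread of the spike-ins, 1, 0, 2 and 9 were called lower and 0 higher at these times, with 3.58%, 1.08%, 2.75% and 45.8% of all genes called lower and 36.1%, 3.43%, 19.5% and 9.47% higher. The arrays of both glucose levels did not overlap for 9, 6, 8 and 9 of the 10 genes at these times, as was so for 72.5%, 56.9%, 70.4% and 85.1% of all genes.

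**Figure D1:**
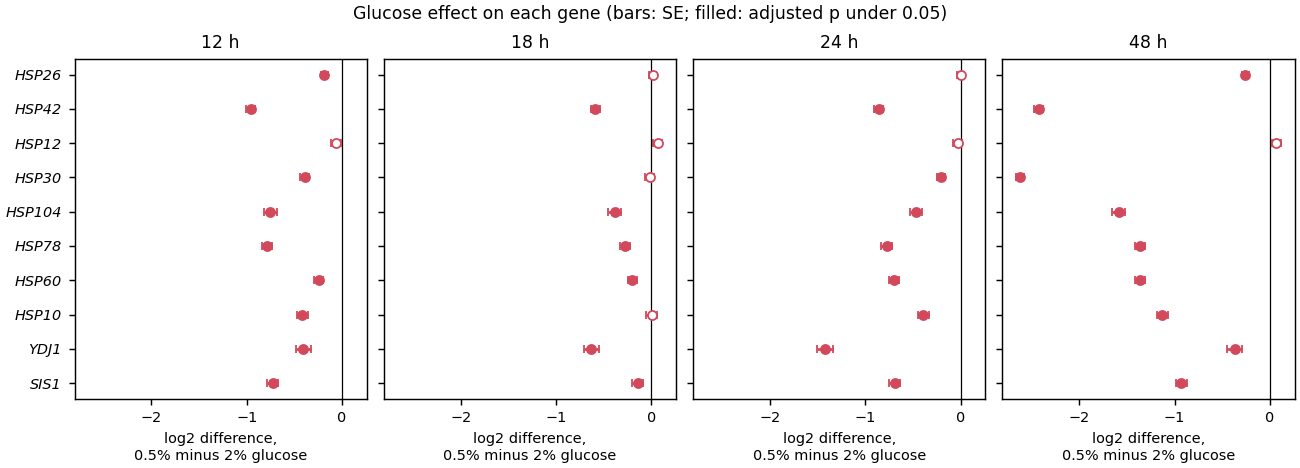
Difference in level between 0.5% and 2% glucose for each of the 10 genes at 12, 18, 24 and 48 h, as log2 of 0.5% minus 2% (points: estimate, bars: SE, filled: adjusted p under 0.05, 3 arrays per group). HSP30 at -2.62 and HSP42 at -2.42 lie farthest to the left, both at 48 h, and HSP12 stays near 0 at all times. On the spike-in scale HSP26, HSP12, HSP30 and HSP60 lie above 0 at 12 h, and HSP26, HSP12, HSP30, HSP10 and SIS1 at 18 h. On the same scale HSP26, HSP12 and HSP30 lie above 0 at 24 h, and HSP12 turns to below 0 at 48 h.

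HSP42, for the small heat shock protein that gathers misfolded proteins into cytosolic foci, was lower in 0.5% glucose at all 4 times. At 12 h its level was 10.42, 10.36 and 10.34 on the arrays of 0.5% glucose, against 11.35, 11.35 and 11.30 in 2% glucose. At 18 h the values were 10.71, 10.76 and 10.72 in 0.5% glucose, against 11.29, 11.33 and 11.32 in 2% glucose. The restricted cultures thus came closest to the controls at 18 h, with no overlap at either time. At 24 h HSP42 stood at 10.63, 10.62 and 10.58 in 0.5% glucose, against 11.49, 11.49 and 11.42 in 2% glucose. At 48 h it stood at 9.01, 9.20 and 8.99 in 0.5% glucose, against 11.47, 11.52 and 11.48 in 2% glucose. In 2% glucose the 4 group means spanned 0.17, and in 0.5% glucose they spanned 1.66, with the 48 h arrays as the lowest.

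The glucose effect on HSP42 was -0.96 ± 0.05 at 12 h, -0.59 ± 0.05 at 18 h and -0.86 ± 0.05 at 24 h. At 48 h it was -2.42 ± 0.05, a 5.37-fold lower level, with an adjusted p of 2.6e-21 (limma). This was the 67th lowest change of the 5449 genes. The drop came between the last harvests: the 48 h level in 0.5% glucose was 2.92-fold below that at 24 h (-1.55 ± 0.05, adjusted p = 4.4e-18, limma). Over the whole course HSP42 fell by 1.31 in 0.5% glucose at 48 h relative to 12 h, and in 2% glucose it was 0.16 ± 0.05 higher at 48 h, a rise that was not called on the spike-in scale. On that scale the 18 h glucose effect on HSP42 was -0.43, not called when the scale was set on each array.

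HSP26, for the other small heat shock protein, which turns into a folding helper on heating, was at the top of the scale on all 24 arrays. It ranked between 2nd and 10th among 10928 probe sets. Quantile normalization sets the value by the rank: 12.57 at rank 1, 12.47 at rank 2, 12.31 at rank 5, 12.10 at rank 10 and 11.48 at rank 50. A value there moves in steps and has little room to move up, so that a difference in HSP26 or HSP12 is a difference in rank. HSP26 had ranks of 6, 5 and 5 in 0.5% glucose at 12 h, against 2, 2 and 2 in 2% glucose. At 48 h its ranks were 10, 7 and 9 in 0.5% glucose, against 4, 2 and 4 in 2% glucose. The groups were apart at both times and overlapped at 18 and 24 h.

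As log2 differences HSP26 was lower in 0.5% glucose by a change of -0.19 ± 0.04 at 12 h and -0.26 ± 0.04 at 48 h, both called, though at 12 h it was 0.22 on the spike-in scale. At 18 h it stood at 0.01 ± 0.04 and at 24 h at 0.00 ± 0.04, with adjusted p of 0.801 and 1.0 (limma). On the spike-in scale HSP26 stood at 0.17 at 18 h and 0.27 at 24 h. With that scale set from group means HSP26 was called higher at 12, 18 and 24 h, and with it set on each array at none of these. Its mean in 0.5% glucose at 48 h was -0.14 ± 0.04 from that at 12 h, called, but 0.0015 after quantile normalization over the tested genes alone, where it was not called. In 2% glucose the same comparison gave -0.06 ± 0.04, which was not called. It was called without replicate 2 of 2% glucose at 48 h (-0.09, adjusted p = 0.0459), with array weights (-0.06, adjusted p = 0.0486) and on the spike-in scale from group means (-0.14, adjusted p = 0.0015, all by limma). The last p takes the spike-in means as exact, though the spike-ins had an SD of 0.08 at 12 h and 0.22 at 48 h in 2% glucose (n = 3 arrays).

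HSP12, for a small protein that binds the plasma membrane and accumulates when cells starve, held ranks 1 to 5 on all 24 arrays and rank 1 on 8 of them. Its level lay between 12.38 and 12.57 in 0.5% glucose and between 12.31 and 12.57 in 2% glucose. The glucose effect was -0.06, 0.07, -0.03 and 0.07 at 12, 18, 24 and 48 h, each with an SE of 0.05, and was not called at any time, though with array weights the 48 h value of 0.09 was (adjusted p = 0.045, limma). These values cannot show a difference among transcripts that are all near the upper end of the scale. On the spike-in scale the glucose effect on HSP12 was 0.34, 0.23, 0.23 and -0.42 at these times, called at each when set from group means. With that scale set on each array none of these values was called. In 2% glucose the 48 h arrays were lower than the 12 h arrays by a change of -0.18 ± 0.05, with ranks of 3, 3 and 5 at 48 h against 1, 1 and 1 at 12 h. In 0.5% glucose that change was -0.05 ± 0.05, which was not called, and -1.02 on the spike-in scale, where it was. It was also called without replicate 1 of 0.5% glucose at 12 h (-0.11, adjusted p = 0.042) and with array weights (-0.08, adjusted p = 0.0432, both by limma).

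HSP30, for a plasma membrane protein that restrains the proton pump Pma1, held to the top of the scale until 24 h and then left it in 0.5% glucose. At 12 h its level was 11.91, 11.88 and 11.72 in 0.5% glucose, against 12.24, 12.24 and 12.21 in 2% glucose. The 18 h arrays gave 11.94, 11.96 and 11.95 in 0.5% glucose, against 11.94, 12.01 and 11.96 in 2% glucose, and the groups overlapped. The 24 h arrays gave 11.83, 11.83 and 11.79 in 0.5% glucose, against 12.08, 12.01 and 11.99 in 2% glucose. On the 48 h arrays it was 9.27, 9.19 and 9.22 in 0.5% glucose, against 11.83, 11.88 and 11.83 in 2% glucose. Its ranks there were 650, 696 and 678 in 0.5% glucose, while on the other 21 arrays it was among the first 32 of 10928.

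The 48 h effect on HSP30, -2.62 ± 0.05 or 6.15-fold lower in 0.5% glucose, was the largest of the 10 genes and the 44th lowest of all 5449, with an adjusted p of 4.2e-22 (limma). At 24 h it was -0.21 ± 0.05, at 18 h -0.02 ± 0.05 (not called) and at 12 h -0.39 ± 0.05. On the spike-in scale these 3 stood at 0.06, 0.14 and 0.0075. The 24 to 48 h step in 0.5% glucose was -2.59 ± 0.05, a 6.03-fold lower level (adjusted p = 3.3e-22, limma). Across the whole course HSP30 fell by 2.61 in 0.5% glucose, and in 2% glucose it fell by 0.38, each with an SE of 0.05. With the 24 h values close to the upper end, part of any fall from a still higher level could not be seen.

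HSP30 has a pair of relatives, MRH1 and YRO2, both for membrane proteins of the same family. MRH1 had a mean level of 6.50 in 0.5% glucose at 48 h, against 8.59 in 2% glucose, a change of -2.09. YRO2 stood at 8.31 in 0.5% glucose at 48 h, against 10.43 in 2% glucose, a change of -2.11. Both were called at 48 h, as were their lower levels at 12 h (-0.16 and -0.65, of which that of MRH1 was 0.24 on the spike-in scale) and at 24 h (-0.73 and -0.30), and at 18 h neither was called (0.02 and 0.07). All 3 genes of the family thus had their largest glucose effect at 48 h.

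**Figure D2:**
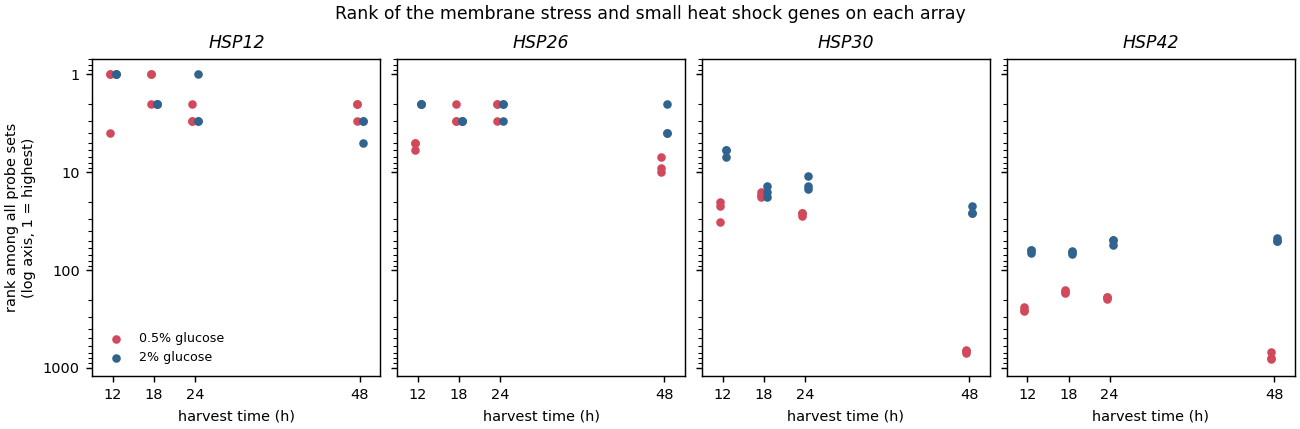
Rank of HSP12, HSP26, HSP30 and HSP42 among 10928 probe sets on each array (vertical axis, log scale, rank 1 at the top) by harvest time in hours, with 1 point per array, 0.5% glucose in red just left of 2% glucose in blue. HSP12 and HSP26 stay within the first 10 on all arrays, while HSP30 leaves the first 32 for ranks 650 to 696 in 0.5% glucose at 48 h.

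HSP104, for the cytosolic disaggregase that works with Hsp70 and gives heat tolerance, followed nearly the same course as HSP42. In 0.5% glucose at 12 h the arrays gave 10.36, 10.45 and 10.44, against 11.12, 11.23 and 11.15 in 2% glucose. At 18 h they gave 10.96, 10.78 and 10.76 in 0.5% glucose, against 11.31, 11.17 and 11.17 in 2% glucose. The restricted arrays were the lower ones at both times and did not overlap the controls. At 24 h the levels were 10.74, 10.83 and 10.74 in 0.5% glucose, against 11.19, 11.15 and 11.36 in 2% glucose. At 48 h the levels were 9.62, 9.75 and 9.66 in 0.5% glucose, against 11.38, 11.16 and 11.25 in 2% glucose. In 2% glucose the 4 group means of HSP104 lay within 0.10 of each other, and their arrays overlapped.

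The effect of restriction on HSP104 was -0.75 ± 0.07, -0.38 ± 0.07, -0.47 ± 0.07 and -1.59 ± 0.07 at 12, 18, 24 and 48 h, all called. On the spike-in scale the 12 and 18 h effects were -0.35 and -0.22. With that scale set on each array those of 12, 18 and 24 h were not called. At 48 h the level was 3.0-fold lower in 0.5% glucose, with an adjusted p of 1.6e-15 (limma). The 48 h mean in 0.5% glucose was 2.13-fold below that at 24 h (-1.09 ± 0.07, adjusted p = 8.6e-13, limma) and -0.74 ± 0.07 from that at 12 h. In 2% glucose 48 h against 12 h gave 0.10 ± 0.07, which was not called.

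HSP78, for the disaggregase of the mitochondrial matrix, was lower in 0.5% glucose at all 4 times. At 12 h its level averaged 9.33 ± 0.09 in 0.5% glucose and 10.12 ± 0.04 in 2% glucose (SD, n = 3 each). At 18 h the means were 9.60 ± 0.09 in 0.5% glucose and 9.87 ± 0.08 in 2% glucose. The gap was narrower at 18 h, though the arrays stayed apart. At 24 h they were 9.29 ± 0.02 in 0.5% glucose and 10.07 ± 0.05 in 2% glucose, and at 48 h 8.99 ± 0.05 in 0.5% glucose and 10.35 ± 0.04 in 2% glucose.

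The differences in HSP78 were -0.79 ± 0.05, -0.27 ± 0.05, -0.78 ± 0.05 and -1.36 ± 0.05 at 12, 18, 24 and 48 h, the last a 2.57-fold lower level with an adjusted p of 5.3e-16 (limma). On the spike-in scale the 18 h difference in HSP78 was -0.11 and not called. With that scale set on each array the 12 h difference, -0.39, and the 24 h difference were not called either. Unlike those of HSP104, its level moved at 48 h in both media: -0.34 ± 0.05 relative to 12 h in 0.5% glucose and 0.23 ± 0.05 in 2% glucose, both called. The rise in 2% glucose was not called on the scale set per array by the spike-ins.

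HSP60, for the ring of the mitochondrial chaperonin, was lower at each later harvest of 0.5% glucose. At 12 h it was 10.78, 10.68 and 10.70 in 0.5% glucose, against 11.04, 10.95 and 10.91 in 2% glucose. At 18 h it was 10.26, 10.33 and 10.38 in 0.5% glucose, against 10.57, 10.47 and 10.54 in 2% glucose. Both media had a lower level at 18 h than at 12 h. By 24 h the levels were 10.11, 9.99 and 9.97 in 0.5% glucose, against 10.72, 10.77 and 10.68 in 2% glucose. By 48 h they were 9.40, 9.43 and 9.39 in 0.5% glucose, against 10.78, 10.77 and 10.77 in 2% glucose. The 4 restricted groups did not overlap one another, and the 2% groups at 24 and 48 h overlapped.

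The glucose effect on HSP60 was -0.25 ± 0.05 at 12 h (0.16 on the spike-in scale) and -0.20 ± 0.05 at 18 h (-0.04 on that scale, not called). It was -0.70 ± 0.05 at 24 h and -1.36 ± 0.05 at 48 h, a 2.57-fold lower level with an adjusted p of 7.5e-17 (limma). The 24 h call was lost with the spike-in scale set on each array. Between 12 and 48 h HSP60 fell by 1.31 in 0.5% glucose and by 0.19 in 2% glucose, each with an SE of 0.05 and each called.

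HSP10, for the lid that closes the Hsp60 chamber, also had its lowest level in 0.5% glucose at 48 h. At 12 h the arrays gave 10.37, 10.35 and 10.26 in 0.5% glucose, against 10.79, 10.71 and 10.74 in 2% glucose. The values at 18 h were 9.80, 10.07 and 10.05 in 0.5% glucose, against 9.96, 9.93 and 10.02 in 2% glucose. The groups were apart at 12 h and overlapped at 18 h. The values at 24 h were 9.60, 9.45 and 9.48 in 0.5% glucose, against 9.87, 9.93 and 9.91 in 2% glucose. Those at 48 h were 8.82, 8.86 and 8.83 in 0.5% glucose, against 9.96, 9.98 and 9.96 in 2% glucose. After 18 h the 2% arrays stayed between 9.87 and 10.02, while the restricted arrays were lower at each later time.

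As differences, HSP10 stood at -0.42 ± 0.06, 0.0023 ± 0.06, -0.39 ± 0.06 and -1.13 ± 0.06 at 12, 18, 24 and 48 h, with all but 18 h called. At 48 h this was a 2.19-fold lower level in 0.5% glucose (adjusted p = 5.3e-14, limma). On the spike-in scale from group means the 12 h effect was -0.02 and the 24 h effect -0.13, neither called, while that of 18 h was 0.16 and called. The 48 h level fell by 1.49 relative to 12 h in 0.5% glucose and by 0.78 in 2% glucose, each with an SE of 0.06. HSP10 was thus the gene of the 10 with the largest fall over time in 2% glucose, and the group means placed that fall between 12 h (10.75) and 18 h (9.97).

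**Figure D3:**
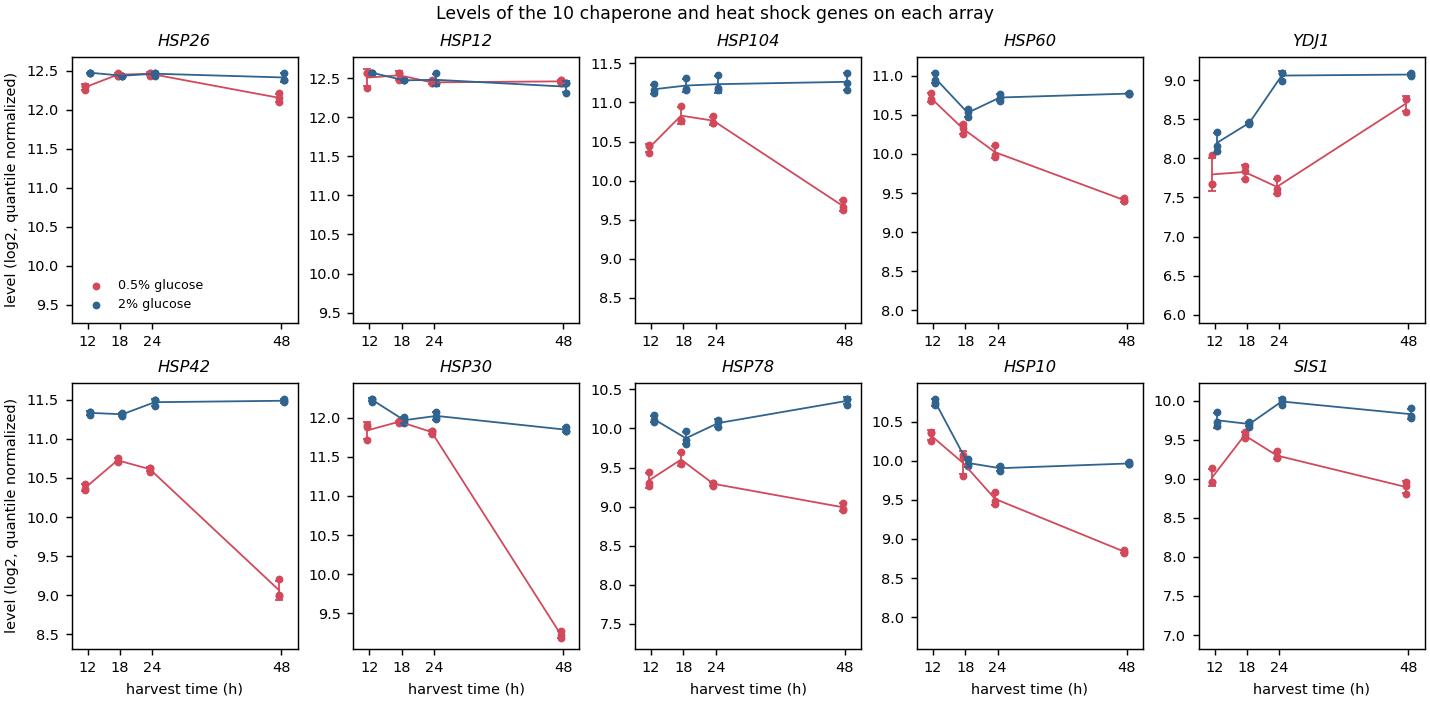
Level (log2, quantile normalized) of each gene on each array by harvest time in hours, with 0.5% glucose in red just left of 2% glucose in blue (points: arrays, lines: means of 3 arrays, bars: SD). Each panel spans the same range of log2 units but has its own offset, so heights compare within a panel only. HSP30, HSP42 and HSP104 drop in 0.5% glucose after 24 h, HSP60 and HSP10 are lower at each later harvest of 0.5% glucose, and YDJ1 is higher at 48 h than at 24 h in 0.5% glucose, a rise not called on the scale set per array by the spike-ins.

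YDJ1, for the main J-domain partner of cytosolic Hsp70, went another way over time. At 12 h its level was 8.04, 7.68 and 7.67 in 0.5% glucose, against 8.34, 8.10 and 8.16 in 2% glucose. At 18 h it was 7.90, 7.74 and 7.84 in 0.5% glucose, against 8.46, 8.44 and 8.47 in 2% glucose. The restricted arrays varied more at 12 h than any other group of this gene, with an SD of 0.21. At 24 h YDJ1 stood at 7.74, 7.60 and 7.56 in 0.5% glucose, against 9.09, 9.10 and 8.99 in 2% glucose. At 48 h it stood at 8.76, 8.76 and 8.59 in 0.5% glucose, against 9.09, 9.06 and 9.07 in 2% glucose. Relative to the other transcripts the control cultures thus reached their highest level by 24 h, and the restricted cultures were above their earlier levels only at 48 h.

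The glucose effect on YDJ1 was largest at 24 h, at -1.42 ± 0.08 or 2.68-fold lower in 0.5% glucose (adjusted p = 2.4e-12, limma). This was the 37th lowest change of 5449 genes at that time, and 1.71% of all genes were lower by at least 2-fold. At 12, 18 and 48 h the effect was -0.41, -0.63 and -0.37, each with an SE of 0.08 and each called. On the spike-in scale the 12 h effect was -0.0036 and not called, and with it set on each array the 18 h effect, -0.47, was not called either. In 0.5% glucose the 48 h level was 2.09-fold above that at 24 h (1.07 ± 0.08, adjusted p = 4.1e-11, limma). Over the whole course YDJ1 was higher at 48 h than at 12 h by 0.91 ± 0.08 in 0.5% glucose and by 0.87 ± 0.08 in 2% glucose, but on the spike-in scale the first of these was -0.07 and not called.

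SIS1, for the essential J-domain protein that also works with Hsp104 on prions, was lower in 0.5% glucose at all 4 times, though at 18 h it stood at 0.02 on the spike-in scale. With that scale set on each array SIS1 was not called at 12, 18 or 24 h. Its mean at 12 h was 9.02 ± 0.11 in 0.5% glucose and 9.75 ± 0.09 in 2% glucose (SD, n = 3 each), and at 18 h 9.56 ± 0.04 in 0.5% glucose and 9.70 ± 0.03 in 2% glucose. At 24 h it was 9.30 ± 0.05 in 0.5% glucose and 9.99 ± 0.04 in 2% glucose, and at 48 h 8.89 ± 0.08 in 0.5% glucose and 9.83 ± 0.06 in 2% glucose. The highest of the restricted groups was that at 18 h.

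Its differences were -0.73 ± 0.06, -0.14 ± 0.06, -0.69 ± 0.06 and -0.93 ± 0.06, the last with an adjusted p of 1.0e-12 (limma). The 18 h call (adjusted p = 0.0388, limma) was lost without any one of 4 of the 6 arrays: replicates 2 and 3 of each glucose level, with adjusted p of 0.123 and 0.0802 in 0.5% glucose and 0.108 and 0.0823 in 2% glucose. Between 12 and 48 h SIS1 changed by -0.13 ± 0.06 in 0.5% glucose (adjusted p = 0.0435, limma), where the arrays overlapped. That call was lost without replicate 1 at 12 h (adjusted p = 0.295) and without replicate 1 or 2 at 48 h (0.201 and 0.0625). It was also lost with quantile normalization over the tested genes, with array weights and in a fit of the compared arrays alone (adjusted p of 0.0583, 0.063 and 0.103, limma). In 2% glucose the change was 0.08 ± 0.06 and was not called, but it was called without replicate 1 of 2% glucose at 12 h (0.13, adjusted p = 0.0487) and with array weights (0.15, adjusted p = 0.0012, both by limma).

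Set side by side, 48 h against 12 h in 0.5% glucose gave 8 of the 10 genes lower and 1, YDJ1, higher, with 41.1% of all genes called lower and 46.8% higher. In 2% glucose 3 were higher (HSP42, HSP78 and YDJ1) and 4 lower (HSP12, HSP30, HSP60 and HSP10), with 38.8% of all genes called higher and 41.4% lower. On the spike-in scale the median of all genes for 48 against 12 h was -0.90 in 0.5% glucose and -0.11 in 2% glucose, in place of 0.08 and -0.02, and the median of the 10 genes was -1.51 and -0.07. The changes over time in 0.5% glucose ranged from -2.61 for HSP30 to 0.91 for YDJ1, and those in 2% glucose ranged from -0.78 for HSP10 to 0.87 for YDJ1. Of the successive steps, that of 24 to 48 h in 0.5% glucose had 9 of the 10 genes called, with 85.2% of all genes called in either direction. In it HSP30, HSP42 and HSP104 were lower by at least 2-fold, as were 13.0% of all genes, and YDJ1 was higher by at least 2-fold, as were 12.3%. The steps of 12 to 18 and 18 to 24 h in 0.5% glucose had 8 and 5 called, with 60.1% and 48.7% of all genes. In 2% glucose the 3 steps had 5, 5 and 3 called, with 68.4%, 49.7% and 61.9% of all genes, and none of the 10 changed by 2-fold in them.

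The test of the difference between the 48 h and the 12 h effect used the same groups as the comparisons above. It was called lower for 7 of the 10 genes, with 36.1% of all genes called lower, and higher for 0, with 43.8% of all genes. They were HSP30 (-2.23 ± 0.06), HSP42 (-1.47 ± 0.07), HSP60 (-1.12 ± 0.07), HSP104 (-0.83 ± 0.09), HSP10 (-0.71 ± 0.08), HSP78 (-0.57 ± 0.08) and SIS1 (-0.20 ± 0.08). For HSP26 it was -0.08 ± 0.05, for HSP12 0.13 ± 0.07 and for YDJ1 0.03 ± 0.11, with adjusted p of 0.2, 0.104 and 0.785 (limma). On the spike-in scale these 3 stood at -0.97, -0.76 and -0.86 and were called lower, whether it was set from group means or on each array, with 77.4% and 57.1% of all genes called lower. An F test, of whether the glucose effect varied over the 4 times, called 9 of 10 genes, all but HSP12 (adjusted p = 0.204, limma), with 91.7% of all genes called. Without the 48 h arrays, an alternative added once the values were known, it called the same 9, with 70.7% of all genes called.

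As a description over the 8 group means, with no test, the genes fell into alike courses. HSP42 and HSP104 had the highest correlation of the 45 pairs, with a Pearson r of 0.99, and 0.98 over the 7 groups left without 0.5% glucose at 48 h. HSP60 and HSP10 had an r of 0.93, and 0.81 without that group. The disaggregases HSP104 and HSP78 had 0.89 between them, and each had 0.93 with SIS1. YDJ1 and HSP42 had 0.23, and 0.88 without 0.5% glucose at 48 h, and YDJ1 and SIS1 had 0.47, and 0.83 without it. All 8 means share the time course and the normalization. The courses of HSP12 and HSP26 are bounded by the top of the scale.

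Outside the 10, the genes with the most alike course over the 8 means were, for HSP42, CPR6 (r = 0.99), for a cyclophilin that assists Hsp90, and HSC82 (0.99), for Hsp90 itself. For HSP104 they were CTH1 (0.99), for an mRNA-binding protein, and CPR6 (0.98). HSP78 was most like TRE1 (0.97) and HSP82 (0.97), the stress-induced copy of Hsp90, and SIS1 was most like HSP82 (0.96) and MSA1 (0.96). YDJ1 was most like CUR1 (0.97), for a factor that sorts misfolded proteins, and PGA3 (0.96). The mitochondrial pair had mitochondrial neighbours: ATP15 (0.99) for HSP60, and TIM11 (0.99) and ATP18 (0.99) for HSP10, all 3 for subunits of the ATP synthase, beside YDC1 (0.99), for a ceramidase, for HSP60. HSP30 was most like EGO4 and PRD1, both with an r of 0.998, which were 0.92 and 0.90 without 0.5% glucose at 48 h.

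For HSP26 the most alike were SOD2 (0.97), for the mitochondrial superoxide dismutase, and PRE4 (0.97), for a proteasome subunit. For HSP12 they were APC5 (0.94) and CAR1 (0.93), for arginase, over a course that spans few ranks.

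The Hsp70 and Hsp90 machines, with which these genes work, were for the most part lower in 0.5% glucose relative to the other transcripts, and the medians of both lists stayed below 0 on the spike-in scale at all 4 times. Of 13 measured Hsp70 and nucleotide exchange factor genes 9, 7, 7 and 8 were lower at 12, 18, 24 and 48 h and 3, 2, 1 and 3 higher. That is 69.2%, 53.8%, 53.8% and 61.5% lower, where 41.2%, 24.8%, 31.4% and 37.8% of all genes were. SSA4, for a heat-induced Hsp70, changed by -2.22 at 12 h and -3.16 at 48 h. SSB2, for an Hsp70 of the ribosome, was higher by 1.60 at 12 h. Of 11 Hsp90 and co-chaperone genes 7, 7, 9 and 7 were lower and 2, 0, 0 and 3 higher at these times, the lower ones being 63.6%, 63.6%, 81.8% and 63.6% of the list. HSP82 changed by -1.68, -1.06, -1.52 and -2.93, and CPR6 by -1.03, -0.47, -1.04 and -2.85. The list medians at 48 h were -0.90 for Hsp70 and -0.55 for Hsp90, against 0.08 for all genes and -1.25 for the 10 genes. SSB2 and HSP82 each have a near-identical copy, SSB1 and HSC82, and the probe sets may not keep the copies apart.

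The other J-domain proteins did not share one direction, and their median of -0.06 at 12 h was 0.34 on the spike-in scale. Of 18 measured, 6, 5, 7 and 8 were lower and 5, 4, 4 and 7 higher at 12, 18, 24 and 48 h. The lower ones were 33.3%, 27.8%, 38.9% and 44.4% of the list, against 41.2%, 24.8%, 31.4% and 37.8% of all genes. APJ1, for a J-domain protein close to Ydj1, changed by -1.25 at 12 h and -1.05 at 48 h, while ZUO1, for the J-domain protein of the ribosome, was higher by 1.05 at 12 h and JJJ3 by 1.29 at 48 h. Among the partners of the mitochondrial chaperones MDJ1, for the J-domain protein of the matrix, changed by -0.57, -0.39, -0.80 and -0.99 at the 4 times. SSC1, for the Hsp70 of the matrix, changed by -0.21 at 18 h, -0.82 at 24 h and -0.90 at 48 h, and of the 14 partners 10, 2, 3 and 5 were lower and 2, 3, 3 and 6 higher. The lower ones were 71.4%, 14.3%, 21.4% and 35.7% of these partners, above the share of all genes at 12 h alone, and their median at 12 h was -0.30, or 0.10 on the spike-in scale.

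Of 12 aggregate sorting factors 7, 4, 6 and 4 were lower and 1, 2, 1 and 4 higher at the 4 times. The lower ones were 58.3%, 33.3%, 50% and 33.3% of the list, against 41.2%, 24.8%, 31.4% and 37.8% of all genes. The medians were -0.37, -0.04, -0.18 and -0.05, and that of 12 h was 0.03, that of 18 h 0.12 and that of 24 h 0.08 on the spike-in scale. BTN2, for a factor that works beside Hsp42 in sorting misfolded proteins, changed by -1.16 at 12 h and -2.38 at 48 h, and its relative CUR1 by -1.08 at 18 h and -1.86 at 24 h.

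The regulators of these genes changed in different directions: of 14 measured, 11, 6, 5 and 5 were lower and 1, 3, 5 and 8 higher at 12, 18, 24 and 48 h. The lower ones were 78.6%, 42.9%, 35.7% and 35.7% of the list, against 41.2%, 24.8%, 31.4% and 37.8% of all genes. HSF1, for the heat shock factor, was lower in 0.5% glucose, with changes of -0.61, -0.34, -0.29 and -0.19 at 12, 18, 24 and 48 h, all called. These were -0.21, -0.18, -0.02 and -0.68 on the spike-in scale. MSN4 was lower too, with changes of -1.28, -0.81, -1.43 and -2.75 and a mean at 48 h of 3.81 in 0.5% glucose, against 6.55 in 2% glucose. MSN2, for the paired factor, was higher by 0.25, 0.76, 0.98 and 1.27, with a mean at 48 h of 8.05 in 0.5% glucose, against 6.78 in 2% glucose. Of 20 genes listed as targets of Msn2 and Msn4, 15, 4, 9 and 13 were lower and 1, 5, 6 and 4 higher at the 4 times. The lower ones were 75%, 20%, 45% and 65% of the list, against 41.2%, 24.8%, 31.4% and 37.8% of all genes. The medians were -0.38, -0.02, 0.0015 and -0.50, or 0.02, 0.14, 0.27 and -0.99 on the spike-in scale. GPH1, for glycogen phosphorylase, changed by -3.78 at 48 h and PGM2, for phosphoglucomutase, by -2.60. These are levels of transcripts and say nothing of where the factors were or how active they were.

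**Figure D4:**
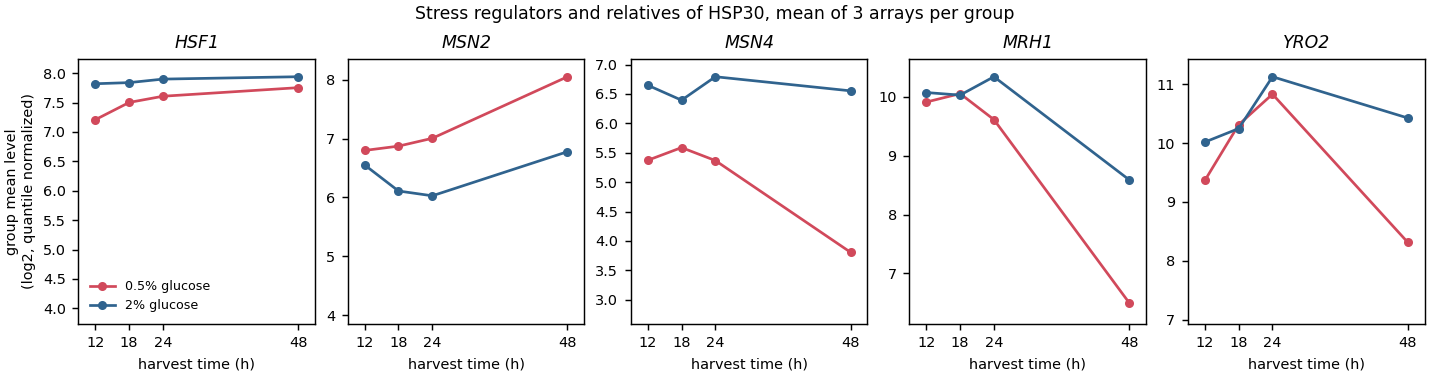
Mean level (log2, quantile normalized, 3 arrays per group) of HSF1, MSN2, MSN4, MRH1 and YRO2 by harvest time in hours, with 0.5% glucose in red and 2% glucose in blue and the same log2 range in each panel. MSN4, MRH1 and YRO2 are lower in 0.5% glucose at 48 h (-2.75, -2.09 and -2.11), while MSN2 is 1.27 higher. On the spike-in scale MRH1 turns to 0.24 at 12 h.

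**Figure D5:**
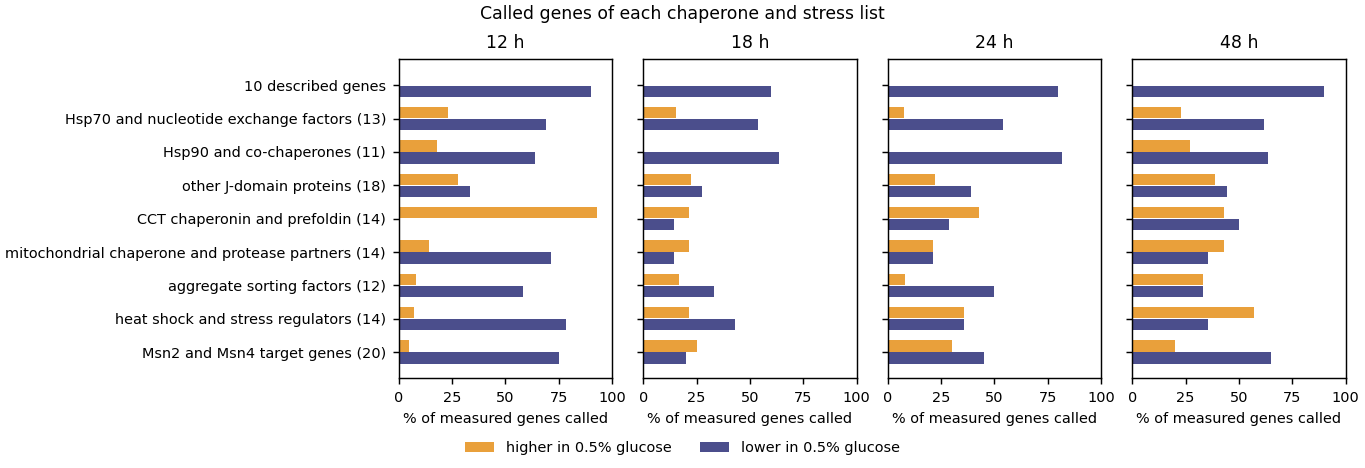
Percent of the measured genes of each list that were called higher (orange) or lower (violet) in 0.5% than in 2% glucose at each time (limma, adjusted p under 0.05), with the number measured in parentheses. The 10 described genes have 9, 6, 8 and 9 called lower and 0 called higher, and the CCT chaperonin and prefoldin list is the one with 13 of 14 called higher at 12 h. Counts are relative to the other transcripts and shift on the spike-in scale, on which, set from group means, 4, 3, 6 and 10 of the 10 were called lower, with 11.6%, 10.6%, 12.4% and 65.4% of all genes. As plotted, 41.2%, 24.8%, 31.4% and 37.8% of all genes were called lower, and 32.2%, 25.5%, 31.6% and 46.0% higher, at 12, 18, 24 and 48 h.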

How the data were processed

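RNA of 24 cultures was measured on Affymetrix Yeast Genome 2.0 arrays, from TRIzol RNA and biotin-labelled cRNA per the labels' protocols. The deposited values are on a log scale, taken here as log2, since the sources used here do not state the base. They were quantile normalized by the authors over 10928 probe sets, as inferred from the values: sorted columns differ by at most 0.0095. Per the submitters' processing notes Partek was used, in a role and version not given in the sources used here. Of 5498 probe sets with 1 Saccharomyces cerevisiae gene, the one with the highest mean was kept per gene, which gave 5449 genes.

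From these values limma 3.58.1 (R 4.3.3) fitted one model with a mean for each of the 8 groups, and its moderated p were adjusted by Benjamini-Hochberg over all genes of a comparison. A gene was called at an adjusted p under 0.05. Tables and figures used python 3.11.15, pandas 2.3.3, numpy 2.4.6 and matplotlib 3.10.9. The fit was tested on simulated data. The number of arrays limits the precision: the median SE of a difference was 0.064. The text names all 10 genes, the 2 genes with the highest correlation to each, HSF1, MSN2 and MSN4 and, from each of 9 lists (118 entries for 113 measured genes), called genes among the first 3 by statistic. The 10 genes and the lists were chosen with earlier results of these data known.

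Replicate numbers paired the arrays (a residual correlation over 0.1 in every pair) in 4 of 12 comparisons: 12, 18 and 24 h between glucose levels and the 12 to 18 h step in 2% glucose. The pairing comes from the data alone, and a fit with the number as a block was one alternative. Others were quantile normalization over the tested genes, centring on the array median, spike-in scales from group means or from each array, removal of dim genes, averages over a gene's probe sets, robust moderation along a variance trend, weights per array, a fit of the compared arrays alone, and leaving out each array. No sequences were used here. Whether the replicates were separate cultures is known only from the word biological in the series design.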

Additional observations from a re-analysis of the deposited data

Results flagged for a closer look

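The glucose effect at 48 h was below that at 12 h, by limma's test of the difference itself, for 7 of the 10 genes and above it for 0. The difference, 48 h effect minus 12 h effect in log2 units ± SE, was -2.23 ± 0.06 for HSP30 (adjusted p = 7.3e-18) and -1.47 ± 0.07 for HSP42 (adjusted p = 1.4e-14). It was -1.12 ± 0.07 for HSP60 (adjusted p = 1.7e-12), -0.83 ± 0.09 for HSP104 (adjusted p = 4.5e-08) and -0.71 ± 0.08 for HSP10 (adjusted p = 6.0e-08). HSP78 had -0.57 ± 0.08 (adjusted p = 4.9e-07) and SIS1 -0.20 ± 0.08 (adjusted p = 0.0251). Over all genes 36.1% were called with a lower effect at 48 h and 43.8% with a higher one. On the spike-in scale 77.4% of all genes were called lower from group means, and 57.1% with it set on each array. The 4 arrays without which the call for SIS1 was lost were replicate 1 of 0.5% glucose at 12 h and at 48 h, replicate 2 of 2% glucose at 12 h and replicate 3 of 2% glucose at 48 h, with adjusted p of 0.0956, 0.0773, 0.0783 and 0.0759. It was also lost in a fit of the compared arrays alone (adjusted p = 0.0687). For HSP30 the 12 h values lie near the top of the scale. The causes of these differences were not tested.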

How the results depend on the processing

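Apart from the spike-in scales, the alternatives left nearly all results as reported: of 672 values of single genes 661 kept their direction and their call, as did 722 of 744 with 1 array left out. Outside the spike-in scales 646 of 648 counts stayed within 1.5 times the reported one. The other 2 came with array weights: 1 of the 10 called higher at 48 h (HSP12) and 8 called in the 18 to 24 h step in 0.5% glucose. Over all genes these counts stayed within 1.5 times the reported 2506 and 2655. Quantile normalization over the tested genes turned HSP10 at 18 h to -0.0004, HSP26 for 48 against 12 h in 0.5% glucose to 0.0015 and its difference of effects to 0.0529. With 1 array left out HSP10 at 18 h ranged from -0.0458 to 0.0891, HSP12 at 24 h from -0.0553 to 0.0129 and the difference of effects of YDJ1 from -0.0351 to 0.1573, all uncalled. The replicate block changed no call of the values given for single genes, and at 12 h it gave 1789 genes higher and 2285 lower, in place of 1755 and 2245, and 9 of the 10 lower. For the 18 to 24 h step in 0.5% glucose it called 7 of the 10, in place of 5, with 2801 of all 5449 genes called, in place of 2655.

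On the spike-in scales the values at 12 h turned to 0.2166 for HSP26, 0.3385 for HSP12, 0.0075 for HSP30 and 0.1554 for HSP60. At 18 h HSP30 turned to 0.1418 and SIS1 to 0.016, at 24 h HSP12 to 0.2341 and HSP30 to 0.0607, and at 48 h HSP12 to -0.4225. For 48 against 12 h YDJ1 in 0.5% glucose turned to -0.0669 and SIS1 in 2% glucose to -0.0051, and the differences of effects turned to -0.761 for HSP12 and -0.8569 for YDJ1. From group means some calls of the glucose effect were lost with the direction kept. These were HSP10 (-0.0183) and YDJ1 (-0.0036) at 12 h, HSP78 (-0.113) and HSP60 (-0.0417) at 18 h and HSP10 (-0.1267) at 24 h. With this setting the genes called higher and lower were 3776 and 633 at 12 h, 2802 and 579 at 18 h, 3499 and 673 at 24 h and 1055 and 3562 at 48 h. They were 797 and 4242 for 48 against 12 h in 0.5% glucose and 514 and 4215 for the difference of effects. Of the 10 genes 3 were higher and 4 lower at 12 h, 4 higher and 3 lower at 18 h, 2 higher at 24 h and 0 higher for 48 against 12 h in 0.5% glucose, and 10 were called in the 18 to 24 h step in 0.5% glucose and 5 in the 24 to 48 h step in 2% glucose. Over all genes the counts of these steps stayed within 1.5 times the reported 2655 and 3374.

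Set on each array, the scale gave 195 genes lower at 12 h, 187 higher and 59 lower at 18 h, 1065 higher and 150 lower at 24 h and 516 higher at 48 h. For 48 against 12 h it gave 526 higher and 3722 lower in 0.5% glucose and 937 higher and 1326 lower in 2% glucose, and 175 higher and 3112 lower for the difference of effects, with 3296 called by the F test. The 12 to 18, 18 to 24 and 24 to 48 h steps had 798 and 289 genes called in 0.5% glucose (the last stayed within 1.5 times) and 1131, 504 and 636 in 2% glucose. Of the 10 genes 1, 0 and 2 were lower at 12, 18 and 24 h, 0 were higher for 48 against 12 h in 0.5% glucose, and 1 was higher and 1 lower in 2% glucose. In the steps it called 1 and 0 of the 10 in 0.5% glucose and 1, 0 and 0 in 2% glucose. These scales move all genes by one amount, and the cause of the spike-in shift was not tested.

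HSP12, HSP26 and, before 48 h in 0.5% glucose, HSP30 are limited by the upper end of the scale rather than by background, and all 10 genes were far above background. Promoter motifs, planned for these genes, were not run, since no promoter sequences were at hand.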

Other observations

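The cytosolic chaperonin CCT and its partner prefoldin, which fold actin and tubulin, did not follow the mitochondrial pair HSP60 and HSP10 at 12 h. Of 14 measured genes 13 were called higher in 0.5% glucose and 0 lower, with 32.2% of all genes called higher, and the list median was 0.29, or 0.69 on the spike-in scale. CCT7 was higher by 0.50, CCT3 by 0.51 and GIM4 by 0.53. At 48 h 6 of the 14 were higher and 7 lower, with 46.0% of all genes called higher and 37.8% lower. The median was -0.08, or -0.57 on the spike-in scale, and PAC10 had changed by -1.18 and GIM3 by -1.10. HSP60 stood at -0.25 and HSP10 at -0.42 at 12 h (0.16 and -0.02 on the spike-in scale), and both were over 2-fold lower at 48 h. The effect at 48 h was below that at 12 h for 10 of the 14 genes and above it for 1, with 36.1% and 43.8% of all genes called in these directions.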
